A study of Mus musculus with 2 samples.

Results

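The proteasome genes of the mouse genome were followed in RNA of splenic cells kept in co-culture with endothelial cells. Members were all genes of the deposited count table whose symbol begins with Psm, a letter from a to g and a number, which gave 50 of 14774 listed genes. Of these, 18 encode subunits of the core particle (Psma and Psmb), 20 belong to the regulatory particle by symbol (Psmc and Psmd), 4 are activators (Psme1 to Psme4) and 8 have other roles. Psma8 was not analysed here. Cells labelled as CD4+CD25+ Tregs came from C57BL/6 spleen and spent 5 days with SVEC4-10, an SV40-transformed mouse endothelial line. Before the co-culture the endothelial cells had been given a control oligo in one group and siRNA against Capns1, the small subunit of the calpain proteases, in the other. Each group had 1 library, called here the control library and the knockdown library, and how many animals stand behind a library is not given.

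The proteasome is the main protease of the cytosol and nucleus for proteins tagged with ubiquitin. Its barrel-shaped core is built of alpha rings around beta rings, and 3 kinds of beta subunit carry the catalytic sites. A regulatory particle, with a base of ATPases and a lid, caps the core, binds ubiquitin chains, removes them and feeds the unfolded protein in. Immune cells, and other cells under interferon gamma, build a core with alternative catalytic subunits, the immunoproteasome, which favours peptides that fit MHC class I molecules.

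Because each group is a single library, no difference could be set against replicate error and p-values are not used. Folds are the library-scaled read count (CPM) of the knockdown library over that of the control library. Their 95% intervals are exact, come from the reads alone and cover counting error only, since amplified reads that carry no molecular identifier need not be separate molecules. The deposited totals were 48100576 control and 47300284 knockdown reads. At the scaled library sizes used for CPM, a count of 3 reads equals 0.0626 (control) and 0.0642 CPM (knockdown). Markers of the labelled cell type were low in both libraries. Foxp3, the transcription factor of Tregs, had 250 and 221 reads, and the 8 Treg and T cell markers summed to 98.5 CPM (control) and 92.7 CPM (knockdown), against 2138 and 1935 CPM for 5 B cell markers. Capns1 stood at 11650 and 11015 reads, which does not check the labels, since the siRNA was given to the endothelial cells and their share of the sequenced RNA is not known.

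The constitutive and immunoproteasome catalytic subunits are compared in pairs below, so the promoters of 2 pairs that take the same catalytic site are shown. Each line gives the 250 bases before the annotated start from RefSeq (GRCm38.p6), 5′ to 3′ on the gene's strand. Capitals mark TGACNNNGC, the core of the antioxidant response element to which the factors encoded by Nfe2l1 and Nfe2l2 bind.
Psmb5 (constitutive, chr14:54617996-54618245, minus strand): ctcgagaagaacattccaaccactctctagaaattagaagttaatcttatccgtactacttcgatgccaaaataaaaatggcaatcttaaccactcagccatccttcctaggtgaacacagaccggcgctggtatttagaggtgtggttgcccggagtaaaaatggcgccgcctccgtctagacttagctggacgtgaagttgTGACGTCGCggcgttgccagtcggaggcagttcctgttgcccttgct
Psmb8 (immunoproteasome, chr17:34197945-34198194, plus strand): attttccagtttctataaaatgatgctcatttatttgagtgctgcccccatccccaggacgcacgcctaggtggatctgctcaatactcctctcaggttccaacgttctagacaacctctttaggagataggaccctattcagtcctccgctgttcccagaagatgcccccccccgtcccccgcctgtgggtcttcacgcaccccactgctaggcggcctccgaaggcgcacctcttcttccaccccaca
Psmb6 (constitutive, chr11:70525107-70525356, plus strand): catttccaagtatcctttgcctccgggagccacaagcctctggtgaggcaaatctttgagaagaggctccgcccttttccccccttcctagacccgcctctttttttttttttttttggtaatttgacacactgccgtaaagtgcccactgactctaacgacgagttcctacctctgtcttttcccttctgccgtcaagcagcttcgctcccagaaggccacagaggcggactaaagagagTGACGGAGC
Psmb9 (immunoproteasome, chr17:34187331-34187580, minus strand): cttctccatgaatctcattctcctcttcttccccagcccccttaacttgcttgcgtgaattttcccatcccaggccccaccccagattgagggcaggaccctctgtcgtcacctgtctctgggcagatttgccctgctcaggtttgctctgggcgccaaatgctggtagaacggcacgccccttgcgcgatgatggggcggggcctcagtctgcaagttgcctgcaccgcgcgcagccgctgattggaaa

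In these windows the motif begins 47 bases before the start of Psmb5 and 9 bases before that of Psmb6, and the Psmb8 and Psmb9 windows hold none. Of the 50 members, 43 had a promoter entry, with 47 promoters in all. Psmb7 had no entry, so its pair with Psmb10 is not shown. TGACNNNGC, searched on both strands, was present in 5 of these 47 (10.6%), against 10.2% of all 32851 promoters of the same length, so the members as a whole did not stand above the table. The 5 genes were Psmb5, Psmb6, Psmc6, Psmd9 and Psmd12, with log2 folds from 0.02 to 0.18. AANNGAAA, a core bound by interferon regulatory factors, was present in 10 of 47 (21.3%), also against 21.3% of all promoters, and among the printed windows in Psmb6 alone, 70 bases before the start. CCGGAAG, a core bound by ETS factors, was present in 14 of 47 (29.8%), against 6.91% of all promoters. These 14 promoters belong to 13 genes, among them Psmc1, Psmc2, Psmd2 and Psme4, with log2 folds from -0.09 to 0.19. The last 2 motifs were chosen after searches with other motifs. No motifs overlap in the printed windows, and a match is a string of letters, not a site at which binding was measured.

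Most proteasome genes stood slightly higher in the knockdown library, and none stood far apart. Of the 50 members, 38 had an interval above 1, where 24.2% of all listed genes did, 2 had one below 1, where 22.7% of all listed genes did, and 10 intervals included 1. Past 1.1-fold with an interval above 1 were 29 members, beside 15.2% of all listed genes. The mirror rule was met by 1 member, Psme2b, beside 15.2% of all listed genes. None of the members was 2-fold higher (0.00677% of all listed genes) or 2-fold lower (0.135%). The median log2 fold of the members was 0.16, against 0.00 over all listed genes, whose log2 folds had an SD of 0.20 across genes. Proteasome transcripts are short, and less the median of genes of like transcript length the median of the members was 0.07. Member folds ran from 0.839 for Psmb11 to 1.26 for Psmg2.

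**Figure D1:**
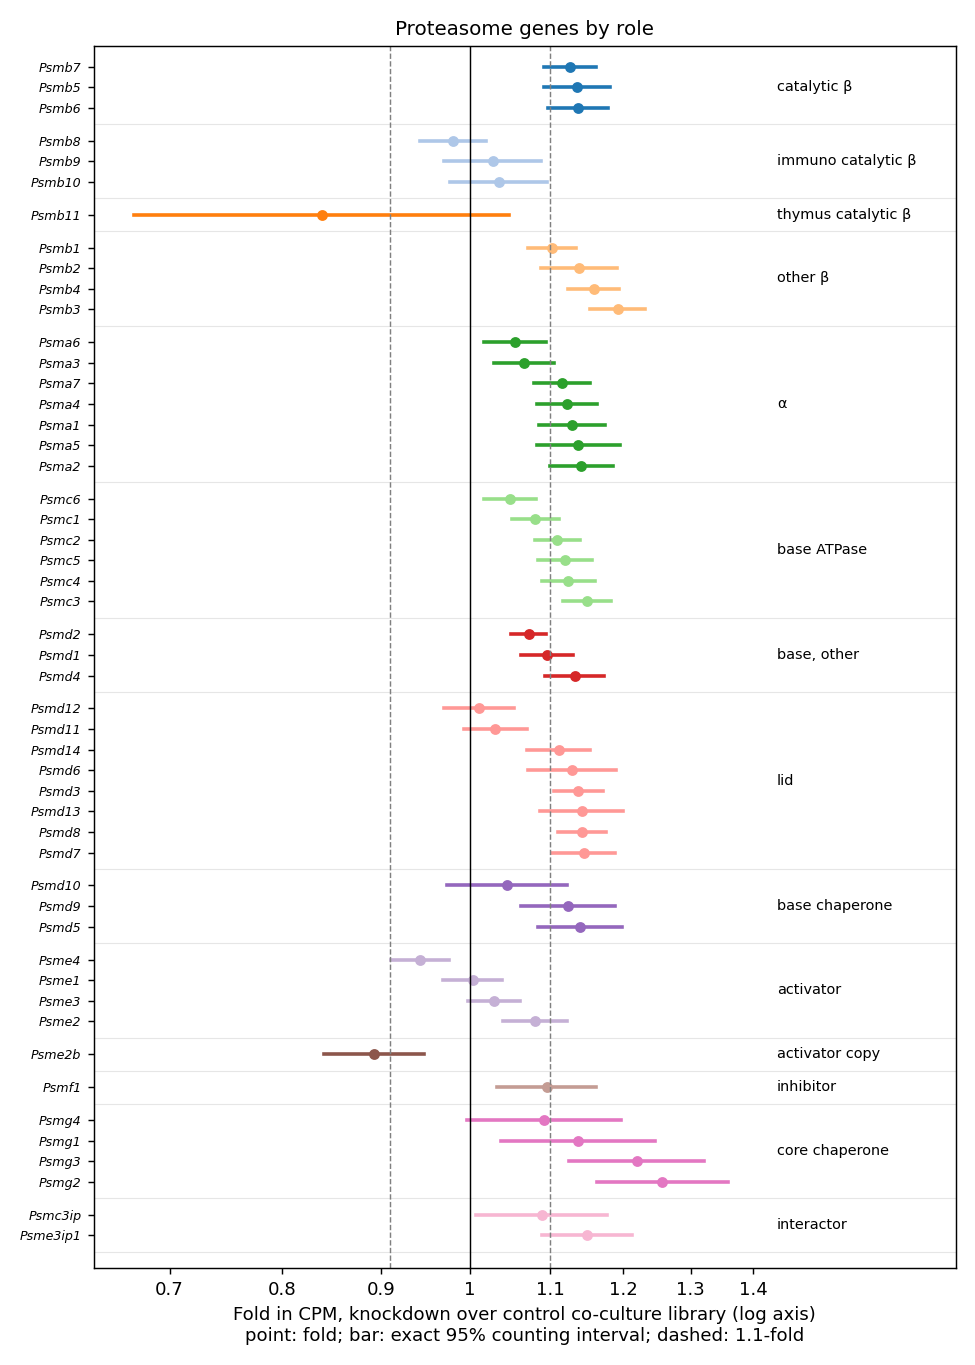
Fold in CPM of each of the 50 members, knockdown over control library, on a log axis, grouped by role; points are folds, bars exact 95% counting intervals, and dashed lines mark 1.1-fold in each direction. The alpha, constitutive beta, base and most lid genes sit between 1.05 and 1.19, while Psmb8, Psmb9 and Psmb10 sit around 1. The activators run from 0.942 for Psme4 to 1.08 for Psme2.

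The constitutive catalytic subunits stood higher in the knockdown library by nearly the same fold. Psmb5 (NCBI Gene 19173), which carries the chymotrypsin-like activity, had 4775 control and 5290 knockdown reads, a fold of 1.14 (95% interval 1.09 to 1.18). Psmb6 (19175), the caspase-like subunit, had 5811 and 6446 reads, a fold of 1.14 (1.097 to 1.18). Psmb7 (19177), the trypsin-like subunit, had 7794 and 8569 reads, a fold of 1.13 (1.09 to 1.16). All 3 lay within 0.02 of each other on the fold scale and past 1.1.

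Their immunoproteasome counterparts all had intervals that included 1. Psmb8 (16913), which takes the place of Psmb5, had 5061 control and 4841 knockdown reads, a fold of 0.980 (95% interval 0.942 to 1.02). Psmb9 (16912), which takes the place of Psmb6 and lies beside Tap1 in the MHC region, had 2318 and 2324 reads, a fold of 1.03 (0.969 to 1.09). Psmb10 (19171), the counterpart of Psmb7, had 2362 and 2385 reads, a fold of 1.03 (0.977 to 1.096). In raw reads Psmb8 was lower in the knockdown library and the other two were slightly higher. Psmb11 (73902), the catalytic subunit of the thymus-specific proteasome, was near the lower end of the table with 182 and 149 reads, and its interval of 0.671 to 1.05 was too wide to show a difference of this size.

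Set against each other within a library, which removes the library scaling but not the trend of folds with transcript length given further on, the immunoproteasome genes took a smaller part in the knockdown library. Psmb8 made up 51.5% (exact 95% interval 50.5% to 52.4%) of the reads of Psmb8 and Psmb5 in the control and 47.8% (46.8% to 48.8%) in the knockdown library. Psmb9 made up 28.5% (27.5% to 29.5%) and 26.5% (25.6% to 27.4%) of its pair. Psmb10 made up 23.3% (22.4% to 24.1%) and 21.8% (21.003% to 22.6%) of its pair. The knockdown library lay lower in all 3 pairs, and the intervals of the libraries do not overlap for Psmb8 and Psmb9, while those for Psmb10 overlap slightly. Over all 3 pairs the odds ratio of immunoproteasome to constitutive reads, knockdown over control library, was 0.887 (exact 95% interval 0.857 to 0.919). Of the 50-base stretches of the transcripts, 57.1% for Psmb5, 28.1% for Psmb7 and 12.5% for Psmb9 also occur in transcripts of other genes, against 5.83% for Psmb8, 2.67% for Psmb6 and none for Psmb10, and how reads of such stretches were assigned is not known here. The pairs ran from 0.863 (0.816 to 0.913) for Psmb8 over Psmb5 to 0.918 (0.860 to 0.980) for Psmb10 over Psmb7.

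**Figure D2:**
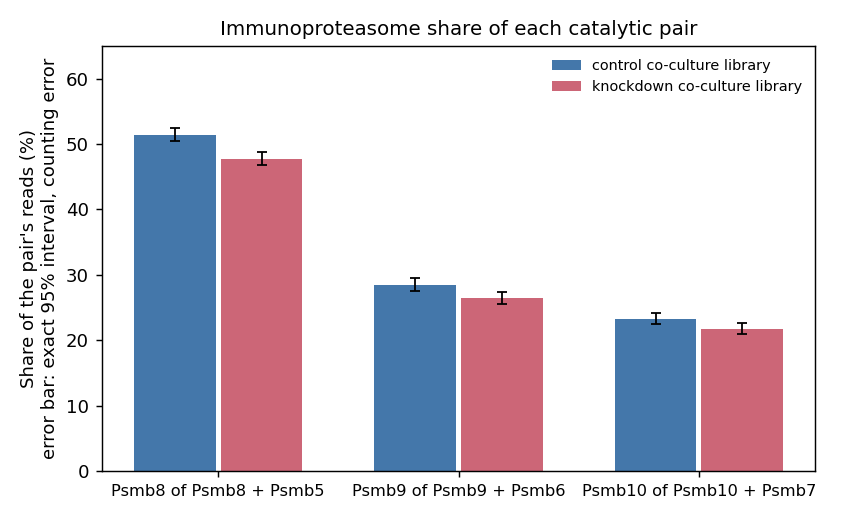
Share of the reads of each catalytic pair, in percent, that came from the immunoproteasome gene, for the control library (blue) and the knockdown library (red); error bars are exact 95% intervals of counting error. The share is lower in the knockdown library for each of the 3 pairs, from 51.5% to 47.8% for Psmb8.

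Per transcript length the constitutive subunits were the more abundant in both libraries. In CPM per kilobase of transcript (RPKM), Psmb5, Psmb6 and Psmb7 stood at levels of 111, 152 and 140 in the control and 126, 173 and 158 in the knockdown library. Psmb8, Psmb9 and Psmb10 stood at levels of 64.9, 35.8 and 37.6 in the control and 63.6, 36.8 and 38.9 in the knockdown library. On this scale Psmb8 was the most abundant immunoproteasome gene, and it made up 36.9% of its pair in the control and 33.6% in the knockdown library.

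Markers of other cells moved between these libraries too. Immunoproteasome genes are expressed by haematopoietic cells at rest, and the summed level of the 5 B cell markers went from 2138 to 1935 CPM, a fold of 0.905. Of 9 macrophage and monocyte markers 8 were listed, with a summed level of 1119 CPM (control) and 791 CPM (knockdown) and all 8 intervals below 1. The 5 markers of matrix-producing cells stood at 1705 and 1656 CPM, a fold of 0.971. Of these 5, Col5a2 had an interval below 1 (fold 0.925, 0.913 to 0.937). Col1a1 had one above 1 (fold 1.05, 1.04 to 1.07), and 3 intervals included 1. The 3 listed erythroid markers stood at 1624 and 1462 CPM. The 3 listed of 4 neutrophil markers summed to 160 and 202 CPM, with S100a8 at a fold of 1.26, S100a9 at 1.29 and Retnlg at 0.717 (95% interval 0.583 to 0.879), and the 2 listed of 6 endothelial markers stood at 86.9 and 82.1 CPM. No listed marker could be at 0, since every listed gene had at least 100 control and 37 knockdown reads. Fewer cells of a type and less RNA per cell cannot be told apart in such libraries, and the part of these markers in the proteasome values was not tested.

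The remaining beta subunits, which close the beta rings without a catalytic site, were all higher and past 1.1-fold. Psmb3 (26446) had the highest fold of the core, with 6568 control and 7638 knockdown reads, a fold of 1.19 (95% interval 1.15 to 1.23). Psmb4 followed with 7947 and 8982 reads, a fold of 1.16 (1.12 to 1.19). Psmb2 stood at 3656 and 4062 reads, a fold of 1.14 (1.09 to 1.19), and Psmb1 at 9159 and 9854 reads, a fold of 1.102 (1.07 to 1.13). The interval of Psmb3 lies above that of Psmb1, so the folds of these genes, with reads as assigned and taken as independent, differed beyond counting error. Of their 50-base stretches, 55.8% for Psmb3 and 2.81% for Psmb1 also occur in transcripts of other genes. Less the median of genes of like transcript length, their log2 folds were 0.14 and 0.08. The part of either in the difference was not tested.

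The 7 alpha subunits form the outer rings and the gate through which substrates enter. All 7 had intervals above 1, and 5 were past 1.1-fold. Psma2 had 5351 control and 5962 knockdown reads, a fold of 1.14 (95% interval 1.1001 to 1.18). Psma5 followed with 3035 and 3368 reads at 1.14 (1.08 to 1.19), and Psma1 with 4930 and 5432 reads at 1.13 (1.09 to 1.17). Psma4 had 5820 and 6375 reads, a fold of 1.12 (1.08 to 1.16), and Psma7 had 6884 and 7494 reads, a fold of 1.12 (1.08 to 1.15). These 5 overlap one another in their intervals. Psma3, with 6051 and 6296 reads, stood lower at 1.07 (1.03 to 1.105), and Psma6, with 5743 and 5913 reads, was the lowest at 1.05 (1.02 to 1.09).

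The base of the regulatory particle was higher in every gene. Its 6 ATPases unfold substrates and open the gate of the core. Psmc3 (19182) led with 8995 control and 10093 knockdown reads, a fold of 1.15 (95% interval 1.12 to 1.18). Psmc4 had 7521 and 8251 reads at 1.12 (1.09 to 1.16), Psmc5 had 7274 and 7948 reads at 1.12 (1.08 to 1.16), and Psmc2 had 10194 and 11036 reads at 1.11 (1.08 to 1.14). Psmc1, with 10077 and 10631 reads, stood at 1.08 (1.05 to 1.11), and Psmc6, with 7772 and 7955 reads, was lowest at 1.05 (1.02 to 1.08). The intervals of Psmc1 and Psmc6 lie below that of Psmc3. Of the other base genes, Psmd4, a receptor for ubiquitin chains, had 6002 and 6633 reads, a fold of 1.13 (1.09 to 1.17). The scaffold subunits Psmd1 and Psmd2 stood at 1.095 (1.06 to 1.13; 7879 and 8422 reads) and 1.07 (1.05 to 1.09; 17807 and 18632 reads).

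In the lid, 6 of 8 genes were past 1.1-fold and the other 2 were near equality. Psmd7 (17463), a partner of the deubiquitinase, had 5279 control and 5898 knockdown reads, a fold of 1.14 (95% interval 1.103 to 1.19). Psmd8 had 8816 and 9827 reads at 1.14 (1.11 to 1.18), Psmd13 had 3044 and 3392 reads at 1.14 (1.09 to 1.199), and Psmd3 had 8744 and 9705 reads at 1.14 (1.105 to 1.17). These intervals overlap that of Psmd7. Psmd6 had 2775 and 3057 reads at 1.13 (1.07 to 1.19). Psmd14, the deubiquitinase that removes ubiquitin from substrates, had 5327 and 5777 reads at 1.11 (1.07 to 1.15). Psmd11 stood at 5462 and 5495 reads, a fold of 1.03 (0.993 to 1.07), and Psmd12 at 4574 and 4513 reads, a fold of 1.01 (0.970 to 1.05). The intervals of Psmd11 and Psmd12 lie below those of Psmd3, Psmd7, Psmd8 and Psmd13. With reads taken as independent, the lid genes thus did not share a single fold in these libraries.

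Summed over their genes, the core and the regulatory particle stood at like folds. The 18 core genes held 93447 control and 101380 knockdown reads, a fold of 1.11 (95% interval 1.102 to 1.12). The 20 Psmc and Psmd genes held 134480 and 144804 reads, a fold of 1.103 (1.095 to 1.11). The odds ratio of core to regulatory reads was 1.01 (exact 95% interval 0.996 to 1.02), so a difference between the particles was not detectable at this depth, and one of over 1.02 lay outside the interval. Without Psmb8, Psmb9 and Psmb10 the odds ratio was 1.02 with an interval of 1.01 to 1.03, above 1. By the median over genes the log2 folds were 0.17 for the core and 0.17 for the regulatory particle, and 0.07 and 0.09 less the median of genes of like length.

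The activators, which open the core without ATPases, stood below both particles. Their 4 genes held 26797 and 26434 reads, a fold of 1.01 (95% interval 0.994 to 1.03), with a median log2 fold of 0.02. The odds ratio was 0.909 (exact 95% interval 0.892 to 0.927) against the core and 0.916 (0.899 to 0.933) against the regulatory particle. Psme1 (19186) and Psme2 (19188) encode the alpha and beta chains of an interferon-inducible cap. Psme1 had 6377 control and 6245 knockdown reads, a fold of 1.003 (0.969 to 1.04) that lies below 1 when totals (0.996) or upper-quartile factors (0.994) scale the libraries. Psme2 had 5270 and 5558 reads, a fold of 1.08 (1.04 to 1.12), the highest of the 4. Psme3 (19192), the gamma activator of the nucleus, had 8275 and 8309 reads, a fold of 1.03 (0.998 to 1.06). Psme4 (103554), an activator known from DNA repair and spermatogenesis, had 6875 and 6322 reads, a fold of 0.942 (0.910 to 0.975), and was the only activator with an interval below 1. Less the median of genes of like length, the log2 folds of Psme1 to Psme4 were -0.11, 0.002, 0.02 and -0.03.

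Psme2 and Psme2b have to be read together. Psme2b (621823) had 2367 control and 2062 knockdown reads, a fold of 0.893 (95% interval 0.841 to 0.947), in the opposite direction to Psme2. Of the 50-base stretches of the Psme2 transcript, 59.3% also occur in transcripts of other genes, and of those of Psme2b 69.3% do. The assignment of such reads to genes is not stated in the labels, so the values of both genes are uncertain. In all, 16 members share over 10% of their stretches with other genes, among them Psmb5 (57.1%), Psmb3 (55.8%) and Psma5 (55.4%), mostly with predicted genes. Without these 16 the core stood at 1.104, the regulatory particle at 1.11 and the activators, then only Psme3 and Psme4, at 0.990.

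Genes that assemble or restrain the particle included the highest folds of all members. Psmg1 and Psmg2 encode a pair of chaperones that builds the alpha ring, and Psmg3 and Psmg4 encode a second pair. Psmg2 (107047) had 1171 control and 1436 knockdown reads, a fold of 1.26 (95% interval 1.16 to 1.36). Psmg3 (66506) had 1124 and 1337 reads, a fold of 1.22 (1.13 to 1.32), and these were the only 2 members past 1.2-fold. Psmg1, with 885 and 982 reads, stood at 1.14 (1.04 to 1.25), and Psmg4, with 917 and 977 reads, at 1.09 (0.997 to 1.196). The intervals of these 4 overlap. Of the chaperones of the base, which the symbol places in the regulatory particle, Psmd5 (2997 and 3334 reads) stood at 1.14 (1.08 to 1.198), Psmd9 (2404 and 2637) at 1.12 (1.06 to 1.19) and Psmd10 (1537 and 1568) at 1.05 (0.974 to 1.12). Psmf1, named as an inhibitor of the core, had 2221 and 2374 reads, a fold of 1.095 (1.03 to 1.16).

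The symbol rule also took Psmc3ip and Psme3ip1, which are not subunits. Psmc3ip acts in homologous recombination and had 1261 and 1340 reads, a fold of 1.09 (95% interval 1.01 to 1.18). Psme3ip1, a binding partner of Psme3, had 2601 and 2918 reads, a fold of 1.15 (1.09 to 1.21). Neither entered the summed values of the particles.

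Folds went with transcript length in these libraries. Across 12887 genes with a known length, which are not independent replicates, the log2 fold had a Spearman correlation of -0.36 with length. The median log2 fold went from 0.11 in the shortest 10% of genes to -0.11 in the longest. Of the 50 members, 18 were among the shortest 10% and 14 among the next 10%, and their median length was 1435 bases, against 3079 bases over all genes with a length. With genes split by length into 10 groups of equal size, and the median of the own group subtracted, the median log2 fold of the members was 0.07, with 40 of 50 above 0. On that scale the core stood at 0.07 (13 of 18 above 0), the regulatory particle at 0.09 (18 of 20) and the activators at -0.02 (2 of 4). Psmb5, Psmb6 and Psmb7 stood at 0.07, 0.07 and 0.06, and Psmb8, Psmb9 and Psmb10 at -0.11, -0.04 and -0.03. The part of length in the folds was not tested beyond this.

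**Figure D3:**
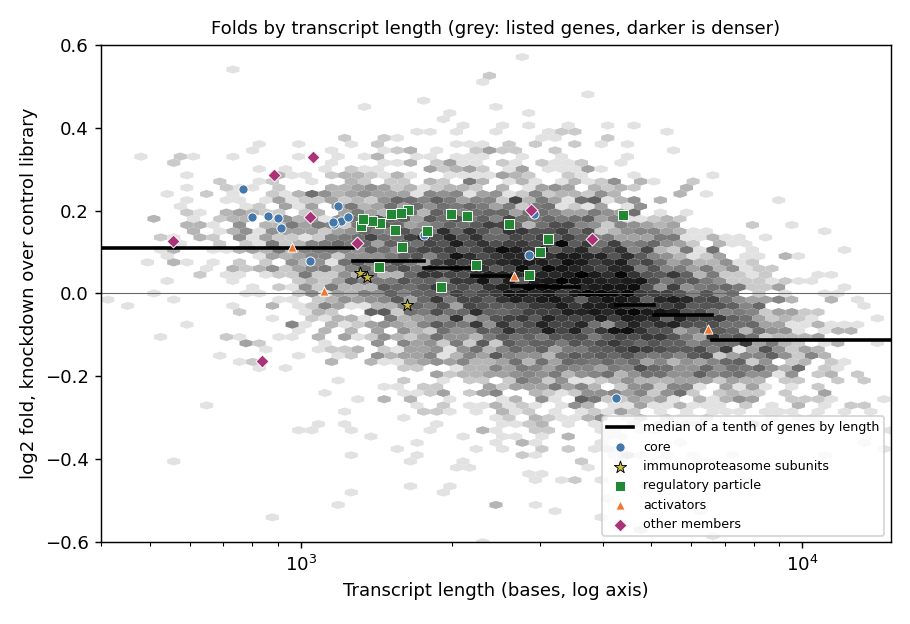
Log2 fold, knockdown over control library, against transcript length on a log axis; grey cells show all genes with a length, black bars the median of each of 10 groups of genes by length, and coloured symbols the members by class. Most core and regulatory members lie above the bar of their own length, by a median of 0.07 and 0.09, while the 3 immunoproteasome subunits (stars) lie below it.

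Genes that tag proteins with ubiquitin or bring them to the proteasome had more intervals above 1 than below. Of all listed genes, 24.2% had one above 1 and 22.7% one below. All 7 ubiquitin and E1 enzyme genes were listed, with a median log2 fold of 0.10, 5 intervals above 1 and 2 below, but less the median of genes of like length their median was 0.01. Ubb, a polyubiquitin gene, had 62570 control and 69778 knockdown reads, a fold of 1.14 (95% interval 1.13 to 1.16). Rps27a, which encodes ubiquitin fused to a ribosomal protein, stood at 1.102 (1.08 to 1.12; 30387 and 32676 reads). Uba6 and Uba7, the E1 enzymes that are not the main one for ubiquitin, were the 2 with intervals below 1, Uba6 at 0.908 (0.853 to 0.966) and Uba7, which activates the interferon-induced modifier Isg15 and was named with its value in view, at 0.938 (0.899 to 0.978). Of 12 delivery genes, 9 had intervals above 1 and none below, with a median log2 fold of 0.09, or 0.06 less that of genes of like length. Past 1.1-fold with an interval above 1 was 1 of the 12 (8.33%), beside 15.2% of all listed genes. Ubxn1, a cofactor of the segregase Vcp, stood at 1.12 (1.09 to 1.16; 9806 and 10756 reads).

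Genes of assembly and regulation outside the symbol rule were split. Of the 14 fixed, 13 were listed, with a median log2 fold of -0.01, 5 intervals above 1 and 4 below. Less the median of genes of like length their median was 0.003, with 7 of 13 above 0. Of all listed genes, 24.2% had an interval above 1 and 22.7% one below. Adrm1, a ubiquitin receptor of the regulatory particle, had 5522 control and 6101 knockdown reads, a fold of 1.13 (95% interval 1.09 to 1.17). The proteasome-bound deubiquitinase Usp14 stood at 1.12 (1.07 to 1.17; 3447 and 3769 reads) and the redox partner Txnl1 at 1.12 (1.07 to 1.16; 4697 and 5126 reads). Sem1, a small lid subunit whose symbol the rule does not take and which was named after its value was seen, stood at 1.02 (0.974 to 1.06; 4339 and 4301 reads). Zfand5, a proteasome-binding zinc finger protein, had 6938 and 5892 reads and the lowest fold, 0.870 (0.840 to 0.901). The other 3 with intervals below 1, named after their values were seen, were Ddi2 at 0.916 (0.860 to 0.975), Ecpas at 0.934 (0.904 to 0.966) and Nfe2l2 at 0.940 (0.903 to 0.978). Less the median of genes of like length, the log2 folds of Zfand5, Ddi2, Ecpas and Nfe2l2 were -0.09, -0.02, 0.01 and -0.13. Nfe2l1, whose product is the transcription factor that raises proteasome genes when the proteasome is inhibited and which was chosen with its value in view, had 19136 and 18365 reads, a fold of 0.983 (0.964 to 1.004).

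Genes that handle proteasome products, together with regulators of the immunoproteasome, had a median log2 fold of 0.01 over 11 genes, with 4 intervals above 1 and 3 below. Less the median of genes of like length their median was -0.01, with 4 of 11 above 0. Over all listed genes, 24.2% of intervals lay above 1 and 22.7% below. The peptidase Thop1 had the highest fold, 1.23 (95% interval 1.16 to 1.32; 1745 and 2101 reads), followed by the aminopeptidase Blmh at 1.197 (1.14 to 1.26; 2741 and 3202 reads). The 3 with intervals below 1, named after their values were seen, were Nlrc5, the activator of MHC class I genes, at 0.921 (0.884 to 0.960), Tpp2, a peptidase, at 0.926 (0.888 to 0.965), and Erap1, which trims peptides, at 0.941 (0.896 to 0.987). Less the median of genes of like length, the log2 folds of Nlrc5, Tpp2 and Erap1 were -0.008, -0.08 and -0.04. Tap1 and Tap2, which carry peptides to MHC class I molecules and were likewise named after their values were seen, stood at 1.02 (0.988 to 1.05) and 0.994 (0.959 to 1.03), near Psmb8 and Psmb9. The values of Tap1 and Psmb9 need not be independent, since 12.5% of the 50-base stretches of Psmb9 also occur in Tap1.

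**Figure D4:**
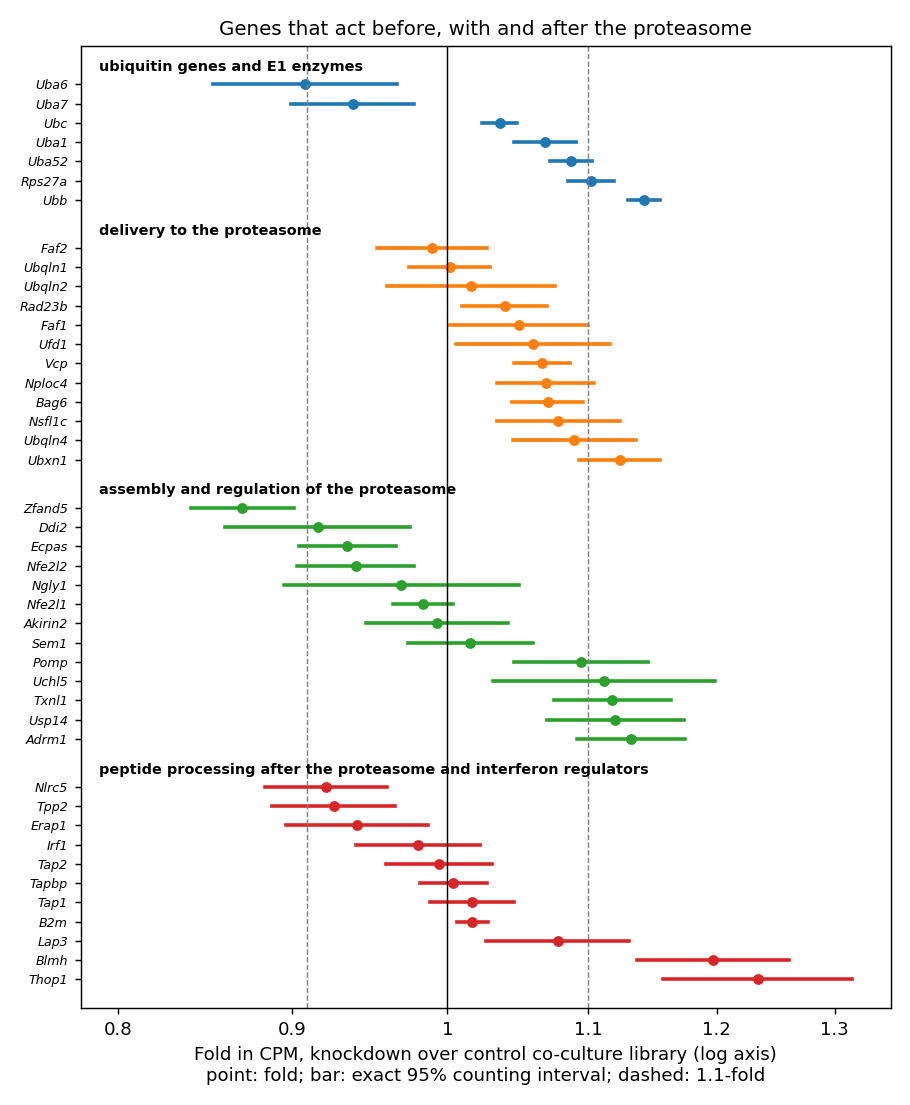
Fold in CPM, knockdown over control library, on a log axis, for genes of 4 lists around the proteasome; points are folds, bars exact 95% counting intervals, dashed lines 1.1-fold. Ubiquitin and delivery genes lie mostly to the right of 1, with 5 of 7 and 9 of 12 intervals above it, while the other lists fall on both sides.

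In the authors' deposited table, log2 ratios of total-scaled reads were above 0 for 44 members, at 0 for 1 and below 0 for 5. In the authors' deposited table the members ran from -0.26 for Psmb11 to 0.32 for Psmg2, with a median of 0.15.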

How the data were processed

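RNA was sequenced from 1 control and 1 knockdown co-culture library, grouped by the treatment label. The authors deposited counts, per the file headers mapped reads per gene, not normalized. Their prefixes Cont and Si were read as control and siRNA, and every direction rests on that. The deposited signal columns (counts scaled to equal totals or by TMM) and the deposited log2 ratios served only to describe the authors' scaling. Tested on the file, the log2 ratios equal those of the total-scaled columns to within 0.005. The submitters' processing notes list Trimmomatic 0.39, BWA 0.7.17, mm8 and GRCm39, with no role for any. Read assignment and strand are not given in the sources used here. Overlapping and near-identical genes cannot be told apart.

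The row of totals was left out. Reads outside the listed genes were 0.782% (control) and 0.764% (knockdown) of the totals. Every listed gene has at least 100 control reads and the lowest knockdown value is 37, so genes higher from a low control level are missing. CPM used edgeR 4.0.16 TMM library sizes (factors 1.004 and 0.996; R 4.3.3). Exact Clopper-Pearson intervals (95%), log2 folds (prior count 0.5) and summaries were computed in Python 3.11.15 with scipy 1.17.1, and odds ratios with R's exact conditional estimate. With 1 library per group no dispersion can be estimated, so no model was fitted. The calls were also run on simulated reads with counting error alone. That checks the computation and says nothing of the spread between replicate libraries. Lengths are those of the longest GENCODE M21 transcript matched by RefSeq accession, or else NCBI Gene ID, for 12887 genes (87.2%) and all 50 members. Promoters were matched by NCBI Gene ID to a RefSeq table of GRCm38.p6, and coordinates refer to that build only.

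The members and lists were chosen with earlier results of these data known. Every member is given. Fold and interval are given for catalytic subunits, activators, the extremes of each role and genes past 1.1-fold. Each pathway list gives up to 4 genes past 1.1-fold. Of the genes fixed for these lists, 2 are not reported here and enter no count of a list. Alternatives were other scalings (DESeq2 1.42.0 size factors, totals, upper quartile), class definitions, filters, thresholds, prior counts and length.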

Additional observations from a re-analysis of the deposited data

How the results depend on the processing

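With 1 library per group no library could be left out, and no paired analysis was possible because each group has a single library. Under DESeq2 size factors, totals and upper-quartile factors, the median log2 fold of all genes moved by 0.01 at most, of the 50 members only Psme1, whose interval included 1 throughout, changed direction (0.996 with totals and 0.994 with upper-quartile factors), and Psmc3ip alone of 50 came to have an interval that includes 1 (under totals and upper-quartile factors). The core stood at a fold of 1.101 with upper-quartile factors and 1.12 without Psmb8, Psmb9 and Psmb10. The regulatory particle stood at 1.095 with totals, 1.09 with upper-quartile factors and 1.11 without genes that share stretches, an alternative chosen after seeing the data. The activators stood at 1.03 with reads per length and 0.990 without such genes, and the odds ratio of core to regulatory reads at 0.991 without them. With means instead of medians, log2 folds were 0.12 for the core and 0.14 for the regulatory particle. Less the median of genes of like length they were 0.069 and 0.095, and -0.016 for the activators, a change of sign. With a threshold of 1.2-fold, 2 members were higher and 0 lower, against 29 and 1 at 1.1-fold. The cause of these shifts was not tested. The other alternatives run stayed within the counting interval of the summed values. Past 1.1-fold, 27 to 29 members were higher under the other scalings, and 0 members were past 2-fold under any alternative run. Depth limits Psmb11 most, with 182 and 149 reads.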

Other observations

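The lid of the regulatory particle is related to 2 other complexes, the COP9 signalosome, which removes the modifier Nedd8 from ubiquitin ligases, and the translation initiation factor eIF3. These and the chaperonin TRiC were looked at after the proteasome values had been seen. Among all listed genes, 24.2% had an interval above 1 and 22.7% one below, shares that are not matched for read depth. The 9 listed Cops genes had a summed fold of 1.07 (95% interval 1.06 to 1.09) and a median log2 fold of 0.13, with 7 intervals above 1 and none below, from Cops5, the deneddylase, at 1.01 (0.962 to 1.05) to Cops7b at 1.14 (1.05 to 1.23). The 12 listed eIF3 genes had a summed fold of 1.07 (1.06 to 1.07) and a median of 0.14, with 10 intervals above 1 and 1 below. They ran from Eif3a, the largest scaffold subunit, at 0.984 (0.970 to 0.999) to Eif3g at 1.2003 (1.16 to 1.24). Less the median of genes of like length, the log2 folds of Eif3a and Eif3g were 0.03 and 0.15. All 8 TRiC genes had intervals above 1, with a summed fold of 1.12 (1.11 to 1.12) and a median of 0.16, from Cct4 at 1.08 (1.06 to 1.11) to Cct6a at 1.14 (1.12 to 1.16). Less the median of genes of like length, the medians were 0.02, 0.08 and 0.11, beside 0.07 for the 50 proteasome genes. No test between these complexes was made.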
